A study of Mus musculus with 6 samples.

Results

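The AMPA and kainate receptors are the glutamate-gated ion channels that carry most of the fast excitatory transmission of the forebrain. Their subunits are encoded by 9 genes, namely Gria1, Gria2, Gria3 and Gria4 for the AMPA receptors and Grik1, Grik2, Grik3, Grik4 and Grik5 for the kainate receptors. The members were taken by gene symbol, and 9 of the 23282 entries of each deposited count table carried these symbols. All 9 had enough counts to be tested between the diets. RNA was measured in whole forebrain of wild-type male C57BL/6J mice, aged 8 to 10 weeks, with the olfactory bulbs and cerebellum removed and 1 hemisphere used for sequencing. The 3 NCD libraries came from mice on a normal chow diet and the 3 HFD libraries from mice on a high-fat diet with 60% of its calories from fat, each for 10 days. The comparison asks whether short-term high-fat feeding changed the transcripts of the brain. The labels number the replicates without saying that each was a separate animal, so p-values measure the spread between these libraries, which may in part be technical.

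An AMPA receptor is a tetramer of the products of Gria1 to Gria4 (GluA1 to GluA4). It opens for a brief time when glutamate binds, and the number and makeup of AMPA receptors at a synapse set its strength. Receptors that contain GluA2 hardly pass calcium, because an adenosine in the Gria2 transcript is edited by the enzyme ADAR2 so that a glutamine of the pore becomes an arginine, at what is called the Q/R site. Grik1 to Grik3 encode the kainate subunits GluK1 to GluK3, which can form channels by themselves, while the Grik4 and Grik5 products GluK4 and GluK5 bind glutamate tightly but need a partner of the first group. Kainate receptors act on both sides of the synapse, where they tune transmitter release, carry slow currents and set the excitability of neurons.

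The coding sequence at the Q/R site is shown for all 9 genes, since this is the stretch of the pore that holds the edited codon in Gria2, Grik1 and Grik2, and it shows how near the genes are to each other there. Each line holds 39 bases of the coding strand, 5′ to 3′, from 1 principal transcript per gene in GENCODE vM21, with the codon of the Q/R site in capitals.
Gria1: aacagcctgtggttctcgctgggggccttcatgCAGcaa
Gria2: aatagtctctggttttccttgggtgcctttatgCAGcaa
Gria3: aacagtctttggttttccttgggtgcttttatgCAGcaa
Gria4: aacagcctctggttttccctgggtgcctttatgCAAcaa
Grik1: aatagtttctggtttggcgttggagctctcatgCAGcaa
Grik2: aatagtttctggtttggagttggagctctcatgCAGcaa
Grik3: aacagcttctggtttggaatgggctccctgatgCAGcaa
Grik4: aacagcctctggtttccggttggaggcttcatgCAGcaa
Grik5: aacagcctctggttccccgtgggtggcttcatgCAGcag

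On GRCm38, the build of these coordinates and of the mm10 alignments, the stretches lie in coding exons. They are at chr11:57243061-57243099 on the plus strand for Gria1, chr3:80706908-80706946 on the minus strand for Gria2, chrX:41610232-41610270 on the plus strand for Gria3 and chr9:4464134-4464172 on the minus strand for Gria4. The kainate stretches are at chr16:87940539-87940577 (minus) for Grik1, chr10:49244326-49244364 (minus) for Grik2, chr4:125691174-125691212 (plus) for Grik3, chr9:42547620-42547658 (minus) for Grik4 and chr7:25022494-25022532 (minus) for Grik5. The codon of the Q/R site is CAG in 8 of the genes and CAA in Gria4, and both spell glutamine in the genome. Codon 607 of Gria2 and codon 621 of Grik2 are these sites. Of the 39 bases, the 6 pairs of AMPA genes shared 31 to 36, the 10 pairs of kainate genes 26 to 38 and the 20 pairs across the families 26 to 32. The ranges overlapped, so this stretch did not sort all pairs by family. Grik1 and Grik2 were the nearest pair at 38. Gria1 shared 32 with Grik4 and with Grik5, against 31 with Gria2 and with Gria3 and 33 with Gria4. The reads of this series lie near the 3′ ends of transcripts and were deposited as counts per gene, so editing at this site and splice forms were not measured.

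The total count was between 6842785 and 9689372 per library, and the 9 genes together held between 10630 and 13692 of it. Values are given as CPM, the read count of a gene scaled to the size of its library with TMM, and the quasi-likelihood test of edgeR was fitted over 13771 genes. HFD replicate 3 and NCD replicate 3 each stood apart from the other libraries of their diet. The chi-square per degree of freedom between libraries was 14.99 and 17.1 for the pairs with HFD replicate 3 and 9.74 and 13.4 for those with NCD replicate 3, against 3.96 and 3.58 for the other pair of each diet. The 3 genes with most counts took 14.2% of the counts in HFD replicate 3 and 12.6% in NCD replicate 3, against 8.97% to 10.6% in the others. In HFD replicate 3 the summed CPM of anterior pituitary markers was 1270.4, against 4.6 to 13.4 in the other 5, and thalamus and midbrain markers were at 164 against 217 to 271. Liver transcripts were highest in NCD replicates 1 and 2, at 24.4 and 43.5 CPM against at most 10.1 elsewhere. Markers of glutamatergic neurons were present in all libraries, at 838 to 937 CPM in sum. The cerebellar granule cell marker Gabra6 had at most 1 count, while Pcp2 of Purkinje cells had 94 to 191. In 13 of 13 marker lists the summed levels of the diets overlapped. Of single markers, 4 of 4 tested for liver, 2 of 6 for thalamus and midbrain, 1 of 6 for GABAergic neurons and 1 of 3 for pituitary had an edgeR unadjusted p under 0.05, with 0 in the other 9 lists.

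Of the 9 receptor genes, 0 had an adjusted p under 0.05 in the edgeR quasi-likelihood test (Benjamini-Hochberg, 0% of all genes tested), and 0 did so with DESeq2 or with limma after quantile normalization. At an unadjusted p under 0.05 there was 1 member, the kainate receptor gene Grik2, which was higher on the HFD. Over all genes tested 3.68% passed that threshold (507 of 13771), and 1.71% did so with a higher level on the HFD. The AMPA receptor genes had log2 fold changes, HFD over NCD, between -0.06 and 0.14, and the kainate receptor genes between -0.26 and 0.41. The median over the 9 genes was -0.03, against -0.0025 over all genes tested. The HFD libraries lay wholly above the NCD libraries for 1 of the 9 genes, again Grik2, and wholly below them for 0, where the shares over all genes tested were 4.31% and 4.49% (8.81% in all). Since RNA came from whole tissue, fewer cells of a type and less RNA per cell cannot be told apart in any of these values.

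**Figure D1:**
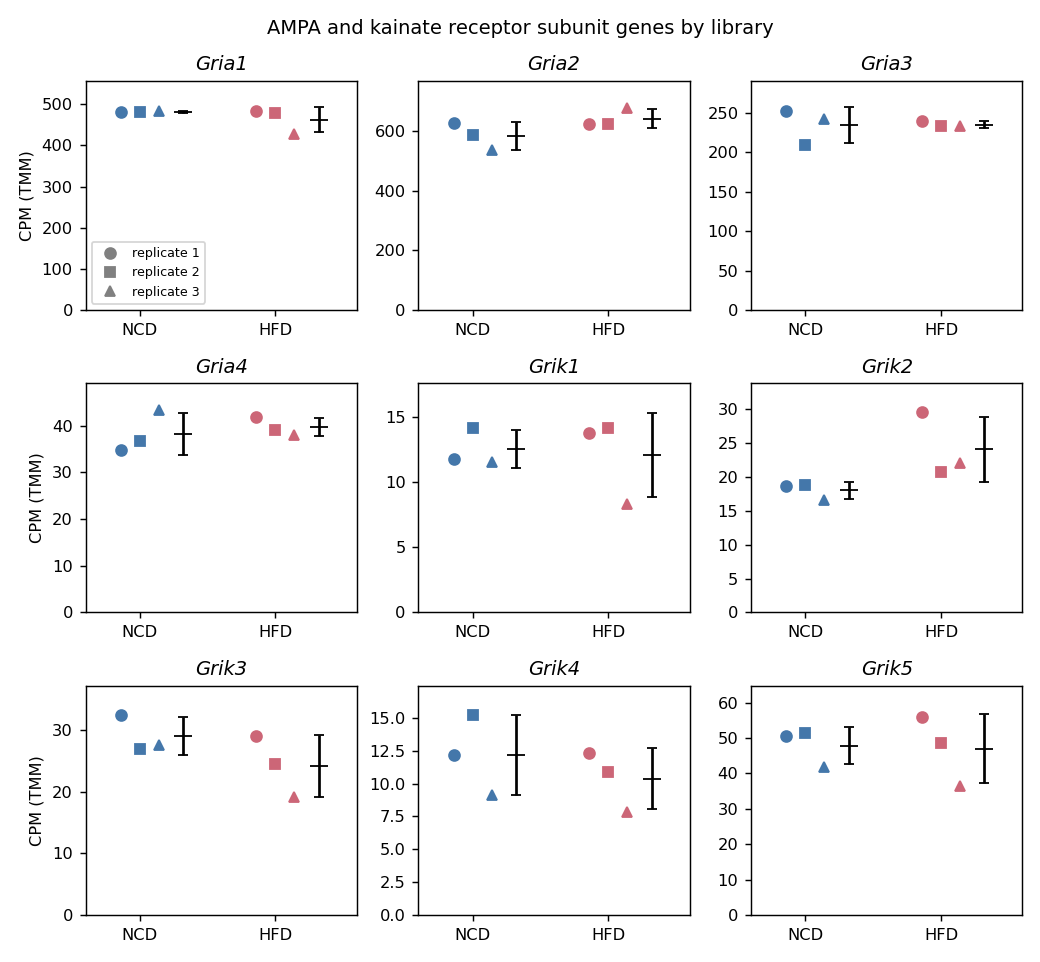
Normalised read counts (CPM after TMM scaling, linear axes from 0) of the 9 receptor genes in each library, with circles, squares and triangles for replicates 1, 2 and 3 and bars for the mean ± SD of each diet (n = 3). The diets overlap in every panel except that of Grik2, and HFD replicate 3 is the lowest point for Gria1, Grik1, Grik3, Grik4 and Grik5.

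Gria2, which encodes the subunit that limits calcium entry, was the most abundant member on the CPM scale. Its level was 628, 586 and 536 CPM in NCD replicates 1 to 3, against 623, 625 and 679 CPM in HFD replicates 1 to 3. The highest NCD library lay above 2 of the HFD libraries, so the diets overlapped. The NCD mean was 583 ± 45.7 CPM and the HFD mean 642 ± 31.6 CPM (SD, n = 3 each). This gave a log2 fold change of 0.14 (standard error, SE, 0.10, 95% interval -0.07 to 0.34, edgeR unadjusted p = 0.173, adjusted p = 0.979). It lay between 0.08 and 0.19 over the 13 alternative fits. The smallest p of Gria2 among these fits was 0.0545, from limma after quantile normalization.

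Gria1 encodes GluA1, the subunit that is inserted into synapses during long-term potentiation. Its level was 480.4, 481 and 485 CPM in NCD replicates 1 to 3, against 483, 478 and 427 CPM in HFD replicates 1 to 3. The NCD libraries hardly varied (482 ± 2.3 CPM, SD, n = 3), and of the HFD libraries replicate 3 alone was low (463 ± 30.7 CPM, SD, n = 3). The log2 fold change of Gria1 was -0.06 (SE 0.10, edgeR adjusted p = 0.979), and -0.0062 without HFD replicate 3. That library was lowest of the 6 in Gria1 and highest in Gria2. The ratio of Gria1 to Gria2 was 0.766, 0.821 and 0.904 on the NCD, against 0.775, 0.765 and 0.630 on the HFD, and the diets overlapped.

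Gria3, on the X chromosome, was at 253, 209 and 242 CPM in NCD replicates 1 to 3, against 240.05, 233 and 233 CPM in HFD replicates 1 to 3. The NCD libraries spread around the HFD libraries on both sides, with means of 235 ± 22.5 and 235 ± 3.96 CPM (SD, n = 3 each). Gria4, the AMPA receptor gene known from interneurons and thalamus, was the least abundant of the 4, with 34.8, 36.7 and 43.3 CPM on the NCD against 41.8, 39.2 and 38.0 CPM on the HFD. Its highest and lowest libraries were both NCD libraries. The log2 fold change was 0.0048 for Gria3 (SE 0.10, edgeR adjusted p = 0.999) and 0.05 for Gria4 (SE 0.13, edgeR adjusted p = 0.981). Both directions depended on the setting. Gria3 was at -0.012 with quantile normalization, -0.013 with library size alone, -0.07 without NCD replicate 2 and -0.0092 without HFD replicate 1, and Gria4 was at -0.014 without NCD replicate 1. In terms of fold, the 95% intervals reached from 0.835 to 1.10 for Gria1, from 0.955 to 1.27 for Gria2, from 0.861 to 1.17 for Gria3 and from 0.859 to 1.25 for Gria4.

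Summed over the 4 genes, AMPA receptor transcripts were at 1395, 1313 and 1306 CPM in NCD replicates 1 to 3, against 1387, 1375 and 1377 CPM in HFD replicates 1 to 3. The log2 ratio of the diet means was 0.04, and the highest and lowest values were both those of NCD libraries. Gria2 made up 45.0%, 44.6% and 41.0% of the AMPA counts on the NCD, against 44.9%, 45.4% and 49.3% on the HFD. Of the 6 libraries, 4 lay between 44.6% and 45.4% whatever the diet, with NCD replicate 3 below them and HFD replicate 3 above. The exact (Clopper-Pearson) 95% binomial intervals of these outer libraries, 40.2% to 41.9% and 48.3% to 50.3%, did not reach the other 4 shares, and cover counting error only, since reads without molecular identifiers are not independent molecules. The mean share was 2.98 percentage points higher on the HFD, 1.73 points without NCD replicate 3 and 1.61 points without HFD replicate 3.

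**Figure D2:**
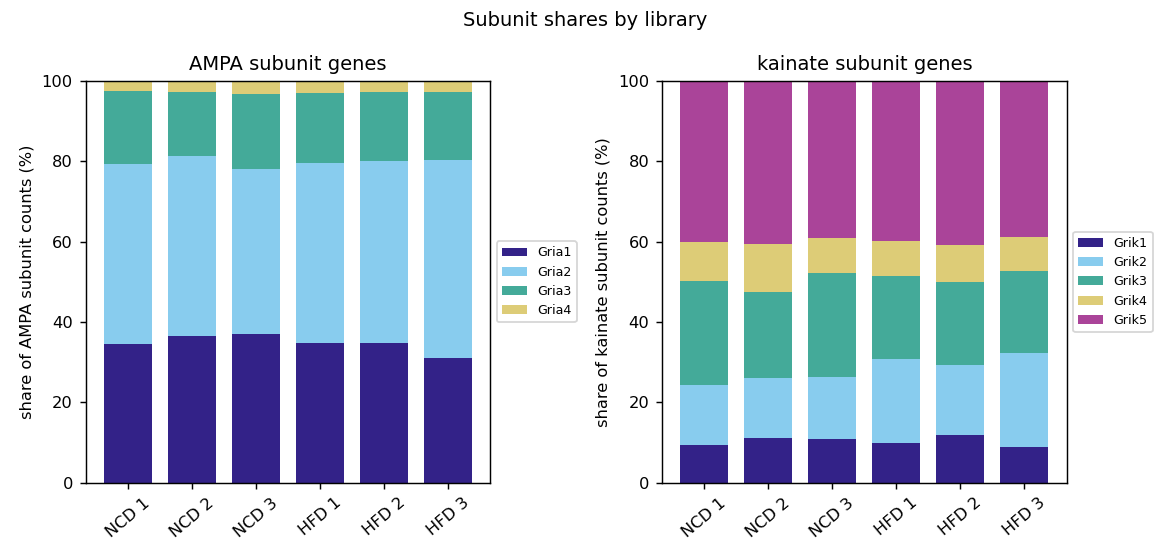
Share (%) of each gene in the counts of the 4 AMPA receptor genes (left) and of the 5 kainate receptor genes (right), as stacked bars for each of the 6 libraries. Gria2 ranges from 41.0% to 49.3% of the AMPA counts without separating the diets, while Grik2 takes 14.8% to 15.5% of the kainate counts in the NCD libraries and 17.4% to 23.4% in the HFD libraries.

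Among the kainate receptor genes, Grik2 encodes GluK2, the widely expressed subunit that carries the kainate response of hippocampal mossy fibre synapses. Grik2 had 151, 175 and 157 counts in NCD replicates 1 to 3, against 205, 189 and 160 counts in HFD replicates 1 to 3. On the CPM scale this was 18.6, 18.8 and 16.5, against 29.5, 20.6 and 22.0. Each HFD library was above each NCD library, and HFD replicate 1 was the highest. The exact 95% Poisson interval of HFD replicate 1 ran from 25.6 to 33.8 CPM and lay above those of all NCD libraries, which ended at 21.9 CPM or lower. The intervals of HFD replicate 2, from 17.8 to 23.8 CPM, and of HFD replicate 3, from 18.7 to 25.6 CPM, each overlapped all 3 NCD intervals. The NCD mean was 18.0 ± 1.28 CPM and the HFD mean 24.0 ± 4.77 CPM (SD, n = 3 each).

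Grik2 had a log2 fold change of 0.41 (SE 0.16, 95% interval 0.07 to 0.75, or 1.05- to 1.69-fold) with an edgeR unadjusted p of 0.021 and adjusted p of 0.979, so it did not pass after adjustment over the genes tested. Over the 13 alternative fits its log2 fold change was above 0 each time, between 0.24 and 0.51, and its unadjusted p was under 0.05 in 11. Without HFD replicate 1 the log2 fold change was 0.24 (edgeR unadjusted p = 0.172), and without NCD replicate 3, 1 of the 2 libraries that stood apart, it was 0.35 (edgeR unadjusted p = 0.0705). Without HFD replicate 3 it was 0.47 (edgeR unadjusted p = 0.0133). Adjusted p-values over the alternatives ran from 0.851 to 0.9999.

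Grik3 encodes GluK3, a subunit with low sensitivity to glutamate that acts mainly at presynaptic terminals. Its level was 32.5, 26.9 and 27.6 CPM on the NCD, against 29.0, 24.5 and 19.1 CPM on the HFD. The diets overlapped, since HFD replicate 1 was above 2 of the 3 NCD libraries. The log2 fold change of Grik3 was -0.26 (SE 0.16, 95% interval -0.59 to 0.08, edgeR adjusted p = 0.979). It was -0.12 without HFD replicate 3 and -0.40, with an edgeR unadjusted p of 0.0306, without HFD replicate 1.

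Grik1 encodes GluK1, which is known from inhibitory interneurons. Its level was 11.8, 14.2 and 11.6 CPM on the NCD, against 13.8, 14.2 and 8.37 CPM on the HFD. HFD replicate 3 was low, and the other libraries of both diets lay within the same range. The log2 fold change of Grik1 was -0.05 (SE 0.21, edgeR adjusted p = 0.991, 95% interval 0.713- to 1.32-fold). It turned to 0.16 without HFD replicate 3 and to 0.06 without NCD replicate 2.

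Grik5 encodes GluK5, the common high-affinity partner subunit, and was the most abundant kainate receptor gene. Its level was 50.5, 51.4 and 41.8 CPM on the NCD, against 55.9, 48.6 and 36.5 CPM on the HFD. Both the highest and the lowest of the 6 values came from HFD libraries. The log2 fold change of Grik5 was -0.03 (SE 0.15, edgeR adjusted p = 0.993, 95% interval 0.789- to 1.22-fold). It turned to 0.12 without HFD replicate 3, to 0.03 without NCD replicate 2 and to 0.01 without NCD replicate 1.

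Grik4 encodes GluK4, the other high-affinity subunit, which is strongest in the CA3 field of the hippocampus. It was the least abundant of the 9 genes, with 12.2, 15.2 and 9.15 CPM on the NCD against 12.4, 10.9 and 7.82 CPM on the HFD. The diets overlapped, with HFD replicate 3 lowest and NCD replicate 2 highest. Grik4 had a log2 fold change of -0.23 (SE 0.22, edgeR adjusted p = 0.979), which was -0.04 without NCD replicate 2, -0.07 without HFD replicate 3, -0.37 without HFD replicate 1 and -0.40 without NCD replicate 3. Its 95% interval, from 0.613- to 1.18-fold, was that of the gene with the lowest counts.

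**Figure D3:**
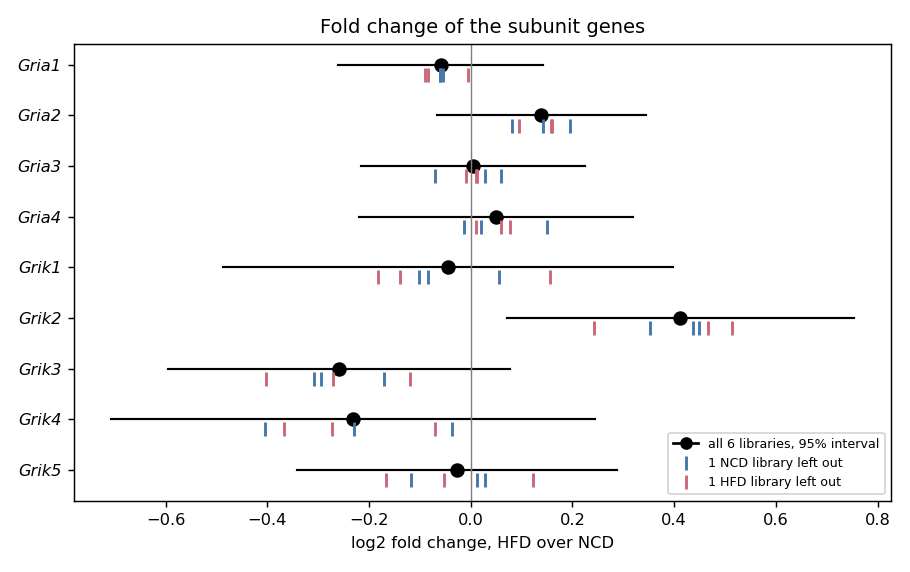
Log2 fold change of each receptor gene, HFD over NCD, with the 95% interval of the edgeR fit (black) and the values after leaving out each NCD (blue ticks) or HFD library (red ticks). Of the 9 intervals, that of Grik2 (0.07 to 0.75) lies above 0, and the values of Gria3, Gria4, Grik1 and Grik5 change direction when a library is left out.

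The summed kainate receptor level was 126, 127 and 107 CPM in NCD replicates 1 to 3, against 141, 119 and 93.7 CPM in HFD replicates 1 to 3. HFD libraries held both the highest and the lowest sum. The log2 ratio of the diet means was -0.02, with 0.12 without HFD replicate 3 and -0.17 without HFD replicate 1. Between the highest and lowest library the level of a kainate gene differed 1.53 to 1.94 times and that of an AMPA gene 1.13 to 1.27 times. The kainate genes had 57 to 477 counts per library, Gria4 277 to 412 and the other AMPA genes 1670 to 5727. Fewer counts give a larger counting error, and its part in this contrast was not tested. In HFD replicate 3, 4 of the 5 kainate genes had their lowest value, and Grik2 did not.

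Other values were also low in this library, which had the lowest sum of the 6 in 6 of the 13 marker lists. The 6 markers of GABAergic neurons summed to 491 CPM in HFD replicate 3 against 606 to 695 CPM in the others. Not each of them was lowest there, since Dlx1 had 118 counts against 81 in HFD replicate 1. Hippocampal neuron markers summed to 81.1 against 90.1 to 112 CPM, but did not all go the same way. Spink8 had 71 counts in HFD replicate 3 against 53 in the larger library of NCD replicate 2, while Dsp had 15 against 31. The sums of astrocyte and liver markers were lowest there too, at 813 against 821 to 886 CPM and at 2.88 against 5.46 to 43.5 CPM. The astrocyte sum was mostly Slc1a3, with 3992 counts in HFD replicate 3 against at most 626 for any other marker of that list. Of the others, Gjb6 was not low, with 522 counts there against 518 in the larger library of NCD replicate 1. Oligodendrocyte precursor markers were at 88.8 against 104 to 129 CPM, and of the 6 thalamus and midbrain markers Foxa2 was at 0 counts in this library alone. Glutamatergic neuron markers were at 872 CPM, within the range of the others. The part of these cell types in the low kainate values was not tested. Without HFD replicate 3 the log2 fold change was above 0 for 3 of the 5 kainate genes, against 1 with it.

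**Figure D4:**
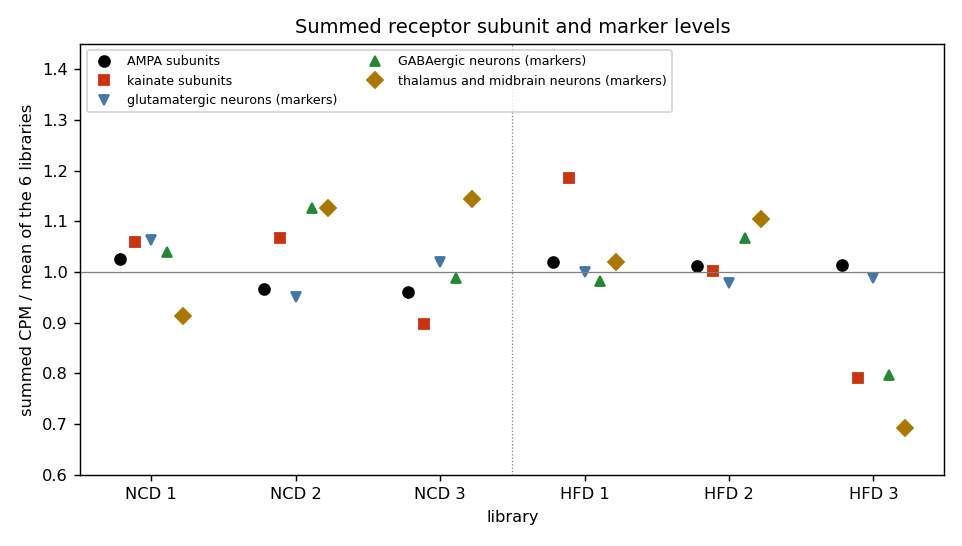
Summed CPM of the AMPA and kainate receptor genes and of 3 marker lists in each library, divided by the mean of the 6 libraries (points are shifted sideways for clarity). AMPA transcripts stay between 0.961 and 1.03 of their mean, while in HFD replicate 3 kainate transcripts are at 0.790, GABAergic markers at 0.796 and thalamus and midbrain markers at 0.692. In that library glutamatergic markers are at 0.989 and oligodendrocyte precursor markers, which are not plotted, at 0.779.

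Within the kainate group, Grik4 and Grik5 together made up 49.9%, 52.6% and 47.8% of the counts on the NCD, against 48.6%, 50.0% and 47.3% on the HFD, and the diets overlapped. Grik2 made up 14.8%, 14.9% and 15.5% on the NCD, against 21.0%, 17.4% and 23.4% on the HFD. Grik3 made up 25.9%, 21.3% and 25.9% on the NCD, against 20.7%, 20.7% and 20.4% on the HFD. Neither share overlapped between the diets, and the ratio of Grik2 to Grik3 was 0.572, 0.700 and 0.599 on the NCD against 1.01, 0.840 and 1.15 on the HFD. These 2 genes were set side by side after their values were seen, and shares of 1 total are bound to move against each other, so no test is given. The exact binomial interval of the Grik2 share in HFD replicate 2, from 15.2% to 19.7%, overlapped those of all NCD libraries. That of the Grik3 share in NCD replicate 2, from 19.0% to 23.7%, held the Grik3 shares of all HFD libraries. The shares of Grik1, Grik4 and Grik5, and that of each AMPA receptor gene, overlapped between the diets. Of the AMPA and kainate counts together, AMPA receptor genes held between 90.8% and 93.6%.

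On the CPM scale the mean level over the 6 libraries fell in the order Gria2, Gria1, Gria3, Grik5, Gria4, Grik3, Grik2, Grik1 and Grik4. The ranges of Grik5 and Gria4, of Grik3 and Grik2, and of Grik1 and Grik4 overlapped, and in each pair the first was higher in 4 of 6 libraries. Per kilobase of the longest coding transcript, Gria1 came first at 85.2 CPM per kb, before Gria2 at 59.1 and Gria3 at 45.3, and the kainate genes ranged from 12.6 CPM per kb for Grik5 to 1.91 for Grik4. Since the libraries were primed on the poly(A) tail, a transcript gives reads near its 3′ end whatever its length. Division by length is therefore not a correction in these libraries, and CPM is not a count of molecules either. An exon of 1 predicted gene on the same strand overlaps each of Gria2, Gria3, Gria4 and Grik4.

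Grid1 encodes a delta receptor subunit, a relative of the members that acts as a synaptic organizer more than as a channel. It was at 30.4, 26.3 and 16.7 CPM on the NCD, against 19.7, 27.8 and 22.2 CPM on the HFD. The diets overlapped, and the log2 fold change was -0.06 (SE 0.20, edgeR adjusted p = 0.988).

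The proteins that assemble, anchor, modify and edit these receptors, together with Grid1, were measured as 66 listed genes, of which 61 were tested. Among them 24 had a log2 fold change above 0 and 37 below, with a median of -0.03. The edgeR quasi-likelihood test found 0 of them at an adjusted and 0 at an unadjusted p under 0.05, and DESeq2 and limma each had 1 at an unadjusted p under 0.05, which was Dlg3. The diets did not overlap for 3 of the 61 genes, against 8.81% of all genes tested, and these are named although they were found by their values. C1ql3, which encodes a secreted synaptic organizer, was at 55.2, 52.4 and 51.9 CPM on the NCD, against 56.8, 66.1 and 62.4 CPM on the HFD. Lrrtm2, a postsynaptic adhesion gene, was at 55.2, 56.0 and 50.6 CPM, against 57.4, 56.8 and 73.6 CPM. Dlg3, which encodes the scaffold SAP102, was at 184, 188 and 204 CPM on the NCD, against 169.9, 168 and 158 CPM on the HFD. The first 2 were higher and Dlg3 was lower in each HFD library. Dlg3 had a log2 fold change of -0.21 (SE 0.10, edgeR unadjusted p = 0.0501, adjusted p = 0.979).

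Of the 15 AMPA receptor auxiliary genes 11 were tested, and 5 were above and 6 below 0. The 2 most abundant were Cnih2, a cornichon that slows channel closing, and Cacng2, which encodes the TARP stargazin. Cnih2 was at 397, 403 and 248 CPM on the NCD, against 367, 393 and 344 CPM on the HFD. Cacng2 was at 400.2, 405 and 237 CPM on the NCD, against 371, 383 and 356 CPM on the HFD. In both genes NCD replicate 3 alone was low. Their log2 fold changes were 0.08 (SE 0.15) and 0.09 (SE 0.15). The 6 assembly factors of the endoplasmic reticulum lay between -0.06 and 0.10, with Frrs1l, whose product helps to build AMPA receptors, at 0.01 (SE 0.10) and Abhd12 at -1.6e-05 (SE 0.11).

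Neto1 and Neto2, which encode the auxiliary subunits of kainate receptors, had log2 fold changes of 0.04 (SE 0.13) and -0.07 (SE 0.13). Neto1 was at 37.2, 40.2 and 46.5 CPM on the NCD, against 41.1, 39.6 and 46.9 CPM on the HFD, and was not low in HFD replicate 3. Neto2 was at 78.1, 70.2 and 68.4 CPM on the NCD, against 56.3, 68.7 and 81.0 CPM on the HFD, where replicate 3 was the highest. The 11 secreted and cell-surface binders had a median of 0.04. Olfm1, which encodes a secreted AMPA receptor binder, was the highest of them, with an NCD mean of 1220 ± 74.4 CPM and an HFD mean of 1252 ± 9.59 CPM (SD, n = 3 each). The neuronal pentraxin receptor gene Nptxr was at 529 ± 63.4 and 477 ± 90.6 CPM (SD, n = 3 each).

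Of the 13 scaffold and trafficking genes 6 were above and 7 below 0. Nsf, whose product binds GluA2 and keeps it at the membrane, had an NCD mean of 695 ± 18.4 CPM and an HFD mean of 653 ± 97.6 CPM (SD, n = 3 each), with HFD replicate 3 low at 540.3 CPM. Akap5 encodes an anchor of kinases at the receptor and took between 1.68% and 2.70% of all counts of a library, which put it among the 3 genes with most counts. Lrrc17, another of these 3 genes, took nearly the same share in each library. Its shares were 1.82%, 1.68% and 2.61% in NCD replicates 1 to 3, and 2.05%, 1.81% and 2.72% in HFD replicates 1 to 3. Those of Akap5 were 1.82%, 1.68% and 2.60%, and 2.04%, 1.80% and 2.70%. Multiple alignments were counted, and what the Akap5 counts derive from was not tested, so they may not give the level of its transcript. The log2 fold change of these counts was 0.12 (SE 0.16), and 0.36 without NCD replicate 3 (edgeR unadjusted p = 0.024). Of the 14 kinase and phosphatase genes 12 were below 0, with a median of -0.08, and 0 passed the test. Ppp3ca, a calcineurin subunit gene, was at 4455 ± 384 and 4696 ± 377 CPM, and Prkcb at 2172 ± 166 and 2049 ± 92.5 CPM on the NCD and HFD (SD, n = 3 each). The gene of the editing enzyme ADAR2, Adarb1, had a log2 fold change of -0.13 (SE 0.11) and Adar one of -0.07 (SE 0.12). Each gene named in these groups had an adjusted p of at least 0.979 in the edgeR quasi-likelihood test.

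**Figure D5:**
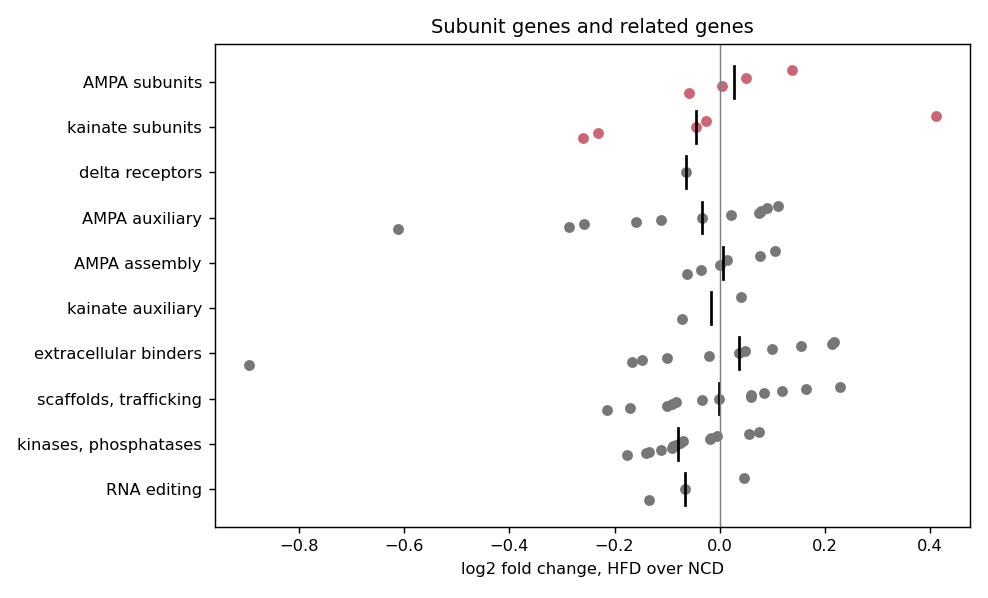
Log2 fold change, HFD over NCD, of the AMPA and kainate receptor genes (red) and of the 61 tested related genes by group (grey), with the median of each group as a black bar. Apart from Olfm2 (-0.90) and Shisa8 (-0.61), 2 genes of low count, the related genes lie between -0.29 and 0.23, and Grik2 at 0.41 is the highest point.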

How the data were processed

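RNA of 6 forebrain libraries (QuantSeq 3′ kit, single 75 bp reads) was counted by the authors, who trimmed the reads, aligned them to mm10 with Bowtie2 and counted unique and multiple alignments with Bedtools. The deposited values are raw read counts per gene, without normalization. The annotation, the use of strand and tool versions are not given in the sources used here, so reads of overlapping genes cannot be told apart.

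Analysis used R 4.3.3 with edgeR 4.0.16 (TMM, glmQLFit, glmQLFTest, and filterByExpr at its minimum of 10 counts and 15 in total), limma 3.58.1 and DESeq2 1.42.0, and Python 3.11.15. The fit held 13771 genes, HFD against NCD, with no covariate, and the standard error is the log2 fold change over the square root of F. The common biological coefficient of variation was 0.126. Genes under the filter came from the fit without it. Libraries within each diet varied beyond sampling noise (chi-square per degree of freedom 3.58 to 17.1). The members and the lists were chosen with earlier results of these data known. Named are the members, Grid1, and of each related list the genes with an unadjusted p under 0.05 and the 2 most abundant; other names were chosen after their values were seen. 1 listed gene is not reported here. The files call Epb41l1 by its older symbol. Positions come from GENCODE vM21 on GRCm38. As alternatives, each library in turn or the 3 genes with most counts were left out, a replicate block was added, the filter was dropped or raised to 10 counts per library, TMM was replaced by library size, and DESeq2 or limma (on quantile-normalized log2 of CPM + 1) was used.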

Additional observations from a re-analysis of the deposited data

How the results depend on the processing

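The count of members with an adjusted p under 0.05 was 0 in all fits. At an unadjusted p under 0.05 it was 0 to 1 with each library left out, with 0 without NCD replicate 3, and 1 in the other settings. Without HFD replicate 1 the 1 member was Grik3 and not Grik2. For the related genes the count at an unadjusted p under 0.05 was 1 with DESeq2, quantile normalization, library size alone, at least 10 counts in every library and without the 3 genes with most counts, which was Dlg3 each time, and 0 to 3 with each library left out (Akap5, Shisa7 and Shisa8 without NCD replicate 3, Olfm2 without NCD replicate 1, C1ql3 without HFD replicate 1). Over all 13771 genes tested, 380 passed that threshold without NCD replicate 3, 472 without NCD replicate 1 and 753 without HFD replicate 1. DESeq2 had 375, limma after quantile normalization 511 and library size alone 455. At least 10 counts in every library gave 465 of 12753, and leaving out the 3 genes with most counts gave 506 of 13768. After quantile normalization 2 members had separate diets, the other being Gria2, and the share over all genes was not computed for that scaling. Gria3 was at -0.012 with quantile normalization and -0.013 with library size alone. With each library left out, the log2 fold change ran from -0.070 to 0.060 for Gria3, from -0.014 to 0.15 for Gria4, from -0.18 to 0.16 for Grik1 and from -0.17 to 0.12 for Grik5. The summed AMPA level ran from 0.03 to 0.08, and the summed kainate level from -0.17 to 0.12. With the replicate number as a block, 371 genes had an unadjusted p under 0.05, 0 members had an adjusted p under 0.05, Grik2 was at 0.40 (unadjusted p = 0.0284) and 0 of the 9 fold changes changed direction. Over all genes tested, the deviations of same-number libraries from their diet means hardly correlated (-0.06 to 0.05), so the numbers were not taken as pairs. Both replicate 3 libraries did share high counts of Akap5 and Lrrc17. Akap5 was at 2.60% of all counts in NCD replicate 3 and 2.70% in HFD replicate 3, against at most 2.04% in the others. The labels do not say what the shared number stands for. Over all genes DESeq2 called 2 at an adjusted p under 0.05, the fit without NCD replicate 3 called 1 and the fit without a filter 23 (902 at an unadjusted p under 0.05, against 507), of which 0 were members. With library size alone, 152 genes were higher and 303 lower at an unadjusted p under 0.05, against 235 and 272. The depth limits the kainate genes, with 57 to 477 counts per library.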

Other observations

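Over the 6 libraries, the genes whose centred log2 CPM lay nearest to the summed AMPA level, among 9355 tested genes other than the members with a mean of at least 10 CPM, were Sprn, Mbnl2 and Ddx25, with root mean square differences of 0.0148, 0.0166 and 0.0169 on the log2 scale. For the summed kainate level they were Maneal, Nab2 and Aplp1, with 0.0311, 0.0464 and 0.0468. Aplp1, a gene of the amyloid precursor family, was at 563, 565 and 509 CPM in the NCD libraries and at 608, 543 and 439 CPM in the HFD libraries, so that it too was highest in HFD replicate 1 and lowest in HFD replicate 3. These genes were picked as the nearest of 9355 over 6 values, and likeness at this size is a description only.

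Several genes of the same receptor complexes were listed at or near 0. Cacng8, which encodes the hippocampal TARP gamma-8, had 0 to 1 counts per library, Cacng7 0 to 14, Cacng4 3 to 10 and Prrt1 0 to 8, while Cacng2 had 2250 to 3758. Among the striatal markers Drd2, the D2 dopamine receptor gene, had 0 to 1 counts, while Adora2a, known from the same neurons, had 141 to 220. A count near 0 in these files therefore does not show that a transcript was absent from the forebrain.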
